A study of Drosophila melanogaster with 2 samples.

Results

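The genes described here encode the translation initiation factors (symbols starting with eIF), the translation elongation factors (symbols starting with eEF) and pAbp, the cytoplasmic poly(A)-binding protein, in nuclei of Drosophila melanogaster embryos. A gene was a member if its symbol followed that rule and it had at least 1 UMI (unique molecular identifier, the tag that marks 1 captured RNA molecule) in the RNA library. Of the 52 symbols that followed the rule, 47 had a UMI, among 11735 genes with a UMI and 17039 genes in the table. The members with at least 20 UMIs, which entered all comparisons of single genes, numbered 42. The study used scAIR, which reads RNA, open chromatin and chromatin contacts from the same nuclei on the 10x Genomics platform. The labels give embryos aged 0 to 24 h in 1 RNA library, with no strain, genotype, treatment or number of pooled embryos. Nuclei were crosslinked, cut with restriction enzymes and ligated before droplet barcoding, so the RNA is that left in or on nuclei after these steps. The second library, of open chromatin and contacts, was not analysed here.

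Initiation factors bring the small ribosomal subunit, the initiator tRNA and the mRNA together. The eIF4 factors bind the mRNA cap and unwind the leader, eIF3 is the large scaffold on the small subunit, eIF2 carries the initiator tRNA and is recharged by its exchange factor eIF2B, and eIF5B joins the large subunit. Elongation factors then deliver each aminoacyl-tRNA (eEF1) and move the ribosome along (eEF2), and pAbp on the poly(A) tail contacts eIF4G at the cap. In the fly embryo some members also act as repressors or translate stored maternal mRNAs, such as eIF4EHP, which binds the cap without eIF4G and represses caudal and hunchback mRNA in the early embryo.

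The library held 318 nuclei and 2233526 UMIs, with a median of 2969 UMIs in a nucleus (quartiles 1393 and 7576.75). The deepest 10% of nuclei carried 48.5% of UMIs, so sums weigh few nuclei heavily. Clustering, done without translation genes among the variable genes, gave 11 clusters, and 218 nuclei (68.6%) lay in clusters that marker genes named. These were 72 neuron-like nuclei (clusters 3 and 9, 20 of 22 neuron markers at least 2-fold higher), 80 epidermis-like nuclei (clusters 2 and 4, 13 of 22 markers), 30 somatic muscle-like nuclei (21 of 25 markers), 29 fat body-like nuclei (clusters 6 and 10) and 7 salivary gland-like nuclei (9 of 14 markers). Clusters 3, 6 and 10 had none of their markers among their 10 leading genes, and cluster 4 also had 5 tracheal markers higher. The fat body-like name rests on 6 of 14 markers, 5 others were at 0 UMIs, and cluster 6 had only 4 fat body markers beside 3 ring gland markers (phm, spok and nvd), so clusters 6 and 10 are given apart below. The fat body marker list took 4.85% of UMIs in cluster 6 and 3.61% in cluster 10, against 0.101% to 0.278% in the other clusters and classes. Clusters 0 (43 nuclei, led by the oocyte transcripts dhd, yl and osk), 1 (25 nuclei, median 855 UMIs) and 5 (32 nuclei, median 10526.5 UMIs) stayed unnamed. There was no replicate library, so no difference below was tested, and all intervals are exact 95% intervals that cover counting error only.

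The 47 factors together held 57440 UMIs, 2.57% of the library (binomial interval 2.55% to 2.59%), and the median nucleus gave them 2.42%. Most of these molecules came from few genes. Elongation factors took 52.1% of the factor UMIs with 8 genes, the 38 initiation factors with a UMI took 29.0%, and pAbp alone took 18.8%. The gene with the most UMIs was eEF1alpha1, the GTPase that delivers aminoacyl-tRNA, at 15299 UMIs or 6850 CPM (counts in 1000000 UMIs, Poisson interval 6742 to 6959). It was the second of all genes in the library and had a UMI in 315 of the 318 nuclei. Next stood pAbp with 10825 UMIs (4847 CPM), the fifth of all genes. These are UMI counts that no step corrected for gene length, so an order of genes here is an order of UMIs.

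**Figure D1:**
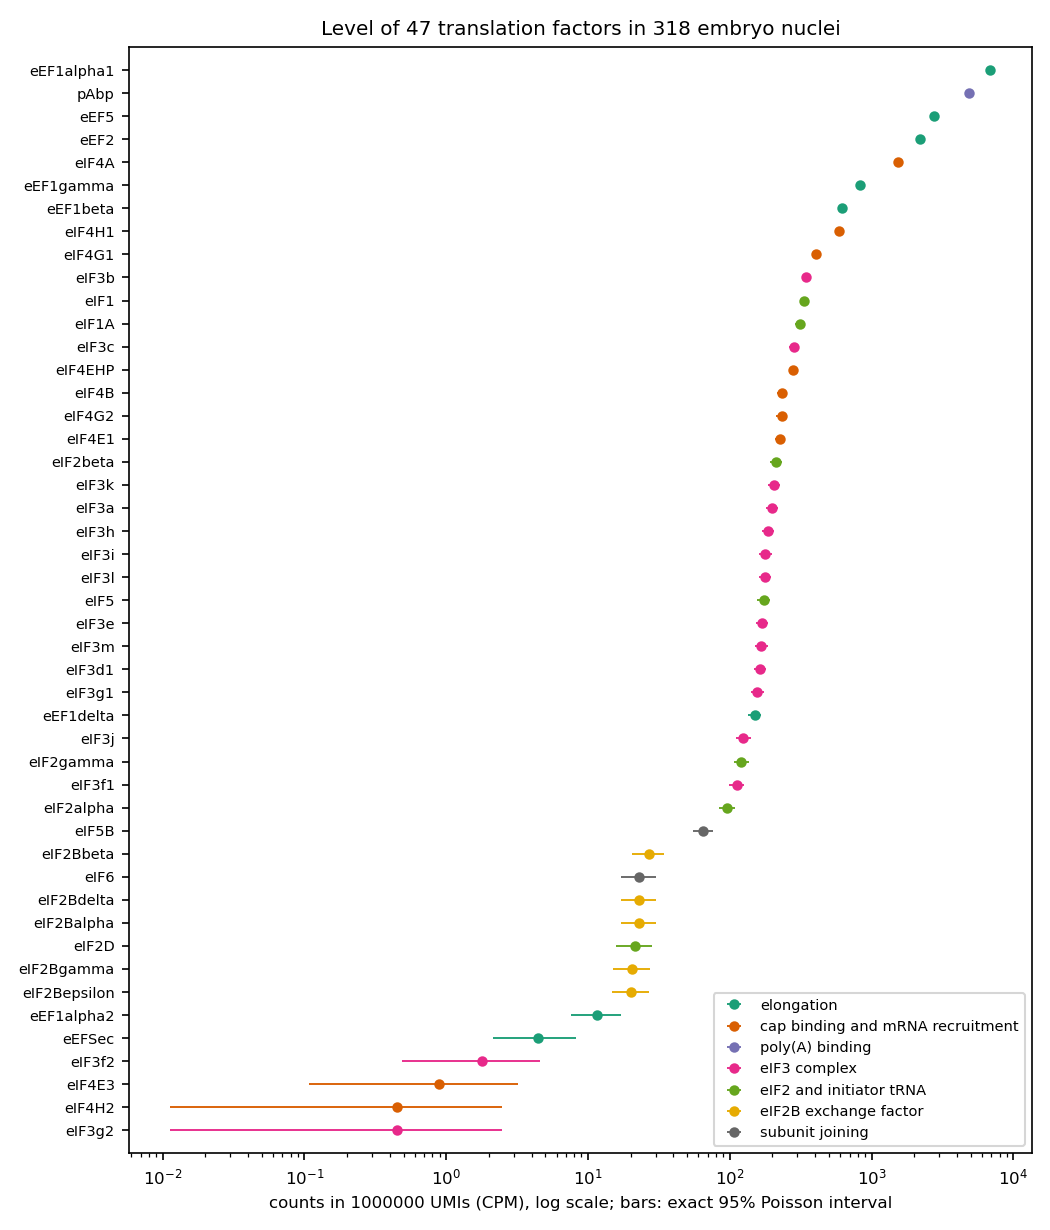
Level of each of the 47 factors over all 318 nuclei, in CPM on a log axis, coloured by role, with bars for the exact 95% Poisson interval. The members span from 6850 CPM for eEF1alpha1 to 0.448 CPM, which is 1 UMI, for eIF3g2 and eIF4H2, and the elongation factors and pAbp fill most of the top places.

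Among the other elongation factors, eEF5 (the eIF5A homologue that helps ribosomes through stalling sequences) had 6168 UMIs, eEF2 (the translocase) 4882, eEF1gamma 1855, eEF1beta 1376 and eEF1delta 336. The last 3 belong to the complex that recharges eEF1alpha with GTP. At the low end stood eEFSec, the factor for selenocysteine, with 10 UMIs in 10 nuclei. In the cap-binding group eIF4A (the RNA helicase) led with 3460 UMIs, followed by eIF4H1 (1311 UMIs) and eIF4G1 (905 UMIs), which stimulate it or hold it at the cap. The eIF3 subunits with at least 20 UMIs, 13 genes, lay between 250 UMIs (eIF3f1) and 775 UMIs (eIF3b), with a median of 396. These 13 spanned a narrow band compared with the elongation factors, which ran from 10 to 15299 UMIs. The minimum left out eIF3f2 (4 UMIs) and eIF3g2 (1 UMI), whereas no minimum was set for the elongation factors. The start codon factors eIF1 and eIF1A had 748 and 695 UMIs. The eIF2 subunits had 474 (eIF2beta), 269 (eIF2gamma) and 214 (eIF2alpha) UMIs, and the 5 subunits of eIF2B had 45 to 60 UMIs each.

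Where a factor exists as 2 or more gene copies, nearly every UMI came from 1 copy, except in the eIF4E and eIF4G families. Of the eEF1alpha pair, eEF1alpha1 held 99.83% (interval 99.75% to 99.89%) and eEF1alpha2 had 26 UMIs. The eIF3 copies eIF3f2, eIF3g2 and eIF3d2 had 4, 1 and 0 UMIs, against 250, 349 and 366 for eIF3f1, eIF3g1 and eIF3d1. The copy eIF4H2 had 1 UMI against 1311 for eIF4H1. Among the cap-binding paralogs eIF4E3 had 2 UMIs, in 1 nucleus of cluster 0, and eIF4E4, eIF4E5, eIF4E6 and eIF4E7 had none. A count of 0 in this library allows up to 3 UMIs, so these copies were not detectable at this depth rather than shown absent. In the eIF4E family eIF4E1, the general cap-binding factor, held 44.5% (41.6% to 47.4%) of 1137 UMIs, and eIF4EHP held 55.3% (52.4% to 58.2%). In the eIF4G pair eIF4G2 held 36.4% (33.9% to 39.0%) of 1423 UMIs.

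The summed factors took 2.41% of UMIs in neuron-like nuclei against 2.60% in all other nuclei (ratio 0.925, 0.903 to 0.948), and 2.77% against 2.50% in epidermis-like nuclei (1.11, 1.09 to 1.13). Of the neuron-like nuclei, as sums of UMIs, cluster 9 had the lower share and cluster 3 lay near the 2.57% of the library. The sum of cluster 3 includes 1 nucleus of 24923 UMIs with a factor share of 3.19%. Somatic muscle-like nuclei gave 2.51% against 2.59% (0.971, 0.950 to 0.992), but 1.01 times the level elsewhere with nuclei thinned to 1000 UMIs. The balance of elongation to initiation factors differed between these classes as well. Over all nuclei there were 1.80 elongation UMIs for each initiation UMI (1.76 to 1.83). Epidermis-like nuclei had the highest ratio of the named classes, 2.05 (1.98 to 2.13), and neuron-like nuclei the lowest, 1.42 (1.35 to 1.50). Fat body-like nuclei stood at 1.95 (1.80 to 2.10), somatic muscle-like nuclei at 1.74 (1.66 to 1.82) and salivary gland-like nuclei at 1.53 (1.33 to 1.76). The intervals of neuron-like, somatic muscle-like and epidermis-like nuclei did not overlap each other, whereas salivary gland-like nuclei overlapped neuron-like and somatic muscle-like nuclei, and fat body-like nuclei overlapped epidermis-like and somatic muscle-like nuclei. Within the neuron-like class cluster 9, which had 20 neuron markers higher, gave 1.18 (1.10 to 1.28), and cluster 3, with 10 such markers, gave 1.65 (1.54 to 1.77). Clusters 2 and 4 of the epidermis-like class gave 2.07 and 2.01. The initiation UMIs include eIF4EHP, which held 200 of 2526 in neuron-like nuclei and 104 of 4286 in epidermis-like nuclei. In cluster 9 it held 141 of 1226, and in cluster 3 it held 59 of 1300. How far the low ratio of neuron-like nuclei rests on this 1 gene was not tested.

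Elongation factors took 1.14% of UMIs in neuron-like nuclei against 1.37% in all other nuclei, a ratio of 0.828 (0.799 to 0.857). Initiation factors took 0.800% against 0.737%, a ratio of 1.08 (1.04 to 1.13). Of the 2526 initiation UMIs of neuron-like nuclei 200 were of eIF4EHP, against 629 of 16663 over all nuclei. This gene, whose reads may be shared with a neuronal gene (below), carries part of the initiation ratio. The ratio without it was not computed. As sums of UMIs, cluster 9 stood at 0.687 of the elongation level in all other nuclei and cluster 3 at 0.987 (0.944 to 1.03). The deepest nucleus of cluster 3 held 24923 of its 161864 UMIs and had an elongation share of 1.87%. The ratio of cluster 3 therefore leans on 1 nucleus, and a lower share in its other nuclei was not tested. In cluster 9 the lower share was not carried by 1 gene. There eEF1alpha1 stood at 0.658 of its level elsewhere, eEF5 at 0.680, eEF2 at 0.778, eEF1gamma at 0.737 and eEF1beta at 0.594. In epidermis-like nuclei elongation factors took 1.54% against 1.27%, a ratio of 1.21 (1.18 to 1.24), and initiation factors 0.750% against 0.745%. Ribosomal proteins moved the same way as elongation factors in both classes. They held 20.2% of UMIs in neuron-like nuclei against 25.8% elsewhere, and 29.3% against 23.6% in epidermis-like nuclei. Of the 83 ribosomal protein genes with at least 20 UMIs, 83 were lower in neuron-like nuclei and 83 were higher in epidermis-like nuclei than elsewhere. Their median log2 differences were -0.36 and 0.31, against -0.02 and -0.10 over all genes. The 2 neuron-like clusters differed here too. In cluster 9 all 83 were lower, with a median of -0.59 against -0.14 over all genes. In cluster 3, 73 were lower and 10 higher, with a median of -0.10 against 0.02 over all genes.

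**Figure D2:**
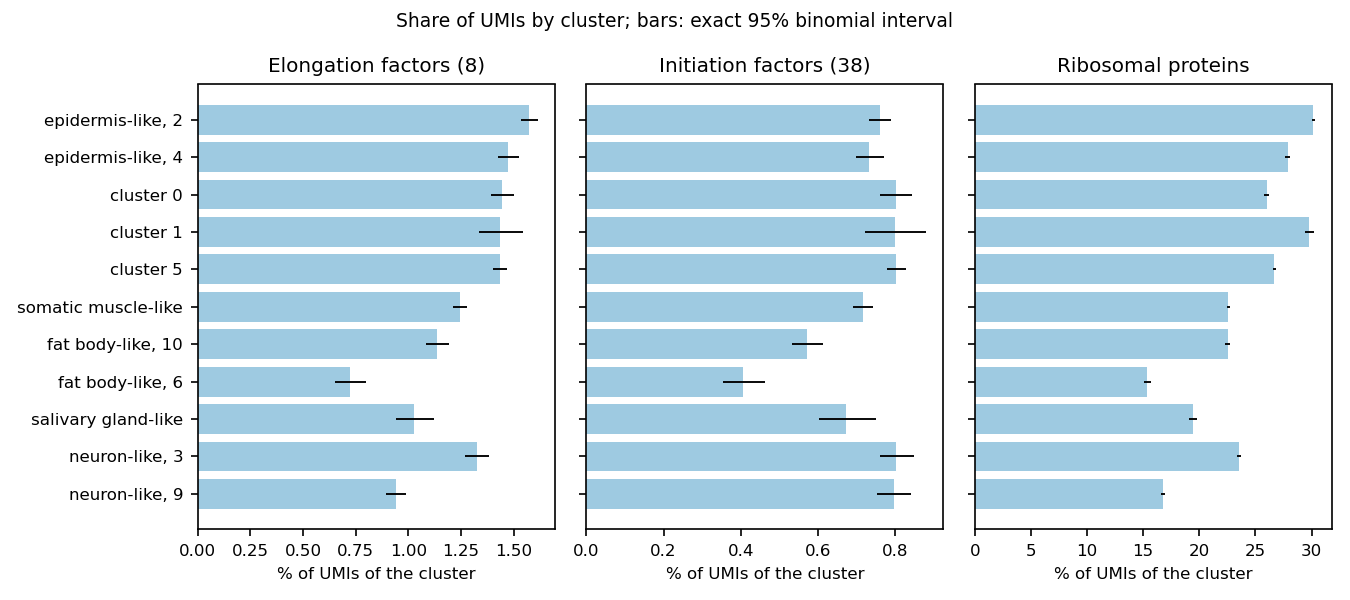
Share of UMIs held by the 8 elongation factors, the 38 initiation factors and the ribosomal proteins in each cluster, in % of the cluster's UMIs, with exact 95% binomial intervals. Cluster 9 of the neuron-like nuclei combines a low elongation share (0.941%) with an initiation share (0.796%) close to that of clusters 0, 1, 3 and 5, whereas cluster 6 of the fat body-like nuclei is low in all 3 groups. Of the 1226 initiation UMIs of cluster 9, 141 are of eIF4EHP alone, against 629 of 16663 over all nuclei.

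Nucleus by nucleus, elongation factors followed the ribosomal proteins and initiation factors did so less. Across the 270 nuclei with at least 1000 UMIs, Spearman's rho between the share of ribosomal proteins and that of elongation factors was 0.784 (Pearson's r 0.779). For initiation factors rho was 0.287 (r 0.312), for pAbp 0.133 (r 0.117), and between elongation and initiation factors 0.419 (r 0.433). These describe 1 library: the points share it, each share has the total of its nucleus as denominator, and initiation factors have fewer UMIs, so counting noise is larger for them. Depth moved with the summed factors, with elongation factors and with ribosomal proteins. In 4 bins of 79 or 80 nuclei, from the shallowest to the deepest, the factor share was 2.14%, 2.35%, 2.46% and 2.64%, and the ribosomal protein share 19.6%, 23.1%, 23.7% and 25.8%. Over the same bins the elongation share was 1.09%, 1.22%, 1.28% and 1.38%, and the initiation share 0.681%, 0.684%, 0.711% and 0.764%. Neuron-like nuclei had a median of 2025.5 UMIs, epidermis-like nuclei 3950 and somatic muscle-like nuclei 4997.5, and the part of depth in the class differences was not tested. With every nucleus thinned to 1000 UMIs the elongation share of neuron-like nuclei stood at 0.754 of that elsewhere.

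**Figure D3:**
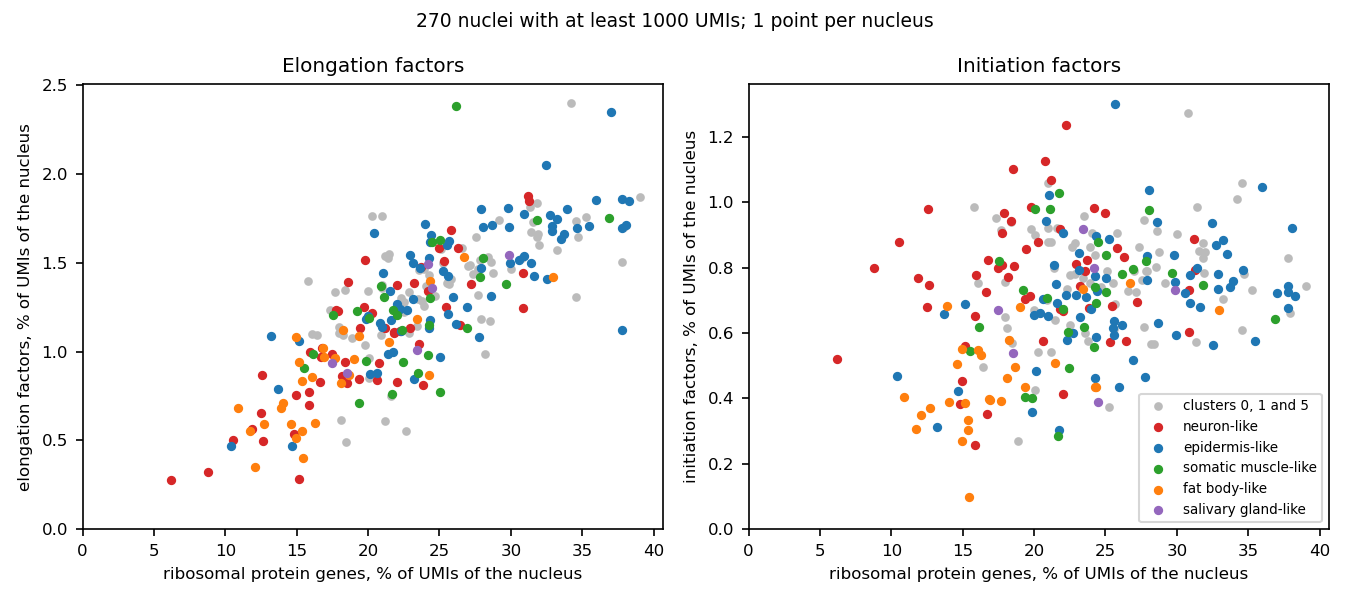
Each point is 1 of the 270 nuclei with at least 1000 UMIs, with the ribosomal protein share of its UMIs on the x axis and its elongation (left) or initiation (right) factor share on the y axis, both in % of the nucleus. Elongation shares lie along a line with ribosomal proteins (rho 0.784), and initiation shares spread more widely (rho 0.287), with many neuron-like nuclei high and fat body-like nuclei low.

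The cap-binding protein eIF4EHP had the highest fold of the members in neuron-like nuclei. It stood at 633 CPM (548 to 727) in neuron-like nuclei, from 200 UMIs, against 224 CPM in all other nuclei, a ratio of 2.83 (2.38 to 3.35). Cluster 9 had 915 CPM (770 to 1079) and cluster 3 had 364 CPM (277 to 470), so the level in cluster 9 lay above that in every other cluster and cluster 3 overlapped cluster 5, at 339 CPM (288 to 396). The other levels were 231 CPM in cluster 0, 217 CPM in somatic muscle-like, 182 CPM in epidermis-like, 162 CPM in cluster 1, 122 CPM in fat body-like and 101 CPM in salivary gland-like nuclei. After thinning to 1000 UMIs, 23 of 54 neuron-like nuclei (42.6%, 29.2% to 56.8%) had an eIF4EHP UMI, against 39 of 216 other nuclei (18.1%, 13.2% to 23.8%). Without thinning, 45 of 72 neuron-like nuclei had one.

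The general factor eIF4E1 did not share this pattern. It stood at 241 CPM (189 to 301) in neuron-like nuclei and 224 CPM elsewhere, a ratio of 1.07 (0.829 to 1.37). Within the eIF4E family eIF4E1 therefore held 27.5% (22.4% to 33.2%) of UMIs in neuron-like nuclei, 51.7% (44.1% to 59.2%) in somatic muscle-like and 55.4% (48.7% to 61.9%) in epidermis-like nuclei. In cluster 9 its share was 17.1% (11.7% to 23.6%) and in cluster 3 it was 44.3% (34.7% to 54.3%).

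A gene of neurons overlaps eIF4EHP. In the RefSeq annotation of the Release 6 assembly the span of eIF4EHP overlaps Syx1A, which encodes the synaptic membrane protein syntaxin 1A and was among the neuron markers, and CG10694, which had 1 UMI in the library. The sources used here do not state whether reads were counted by strand, so reads of eIF4EHP and Syx1A cannot be told apart. Syx1A stood at 446 CPM in neuron-like nuclei against 201 CPM elsewhere, a ratio of 2.22 (1.82 to 2.70). Their levels had different ratios in the 2 neuron-like clusters, since Syx1A was at 474 CPM in cluster 9 and 420 CPM in cluster 3, where eIF4EHP was at 915 and 364 CPM. Among nuclei with no Syx1A UMI, the 31 neuron-like nuclei had 421 CPM of eIF4EHP from 20 UMIs and the 130 others 159 CPM from 59 UMIs, a ratio of 2.65 (1.51 to 4.46). Those 31 nuclei had a median of 1164 UMIs, where a count of 0 can be a matter of depth. Reads of Syx1A counted as eIF4EHP would also leave a 0, so shared reads were not tested by this split. In nuclei with a Syx1A UMI eIF4EHP was at 671 CPM in neuron-like nuclei and 239 CPM in others.

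**Figure D4:**
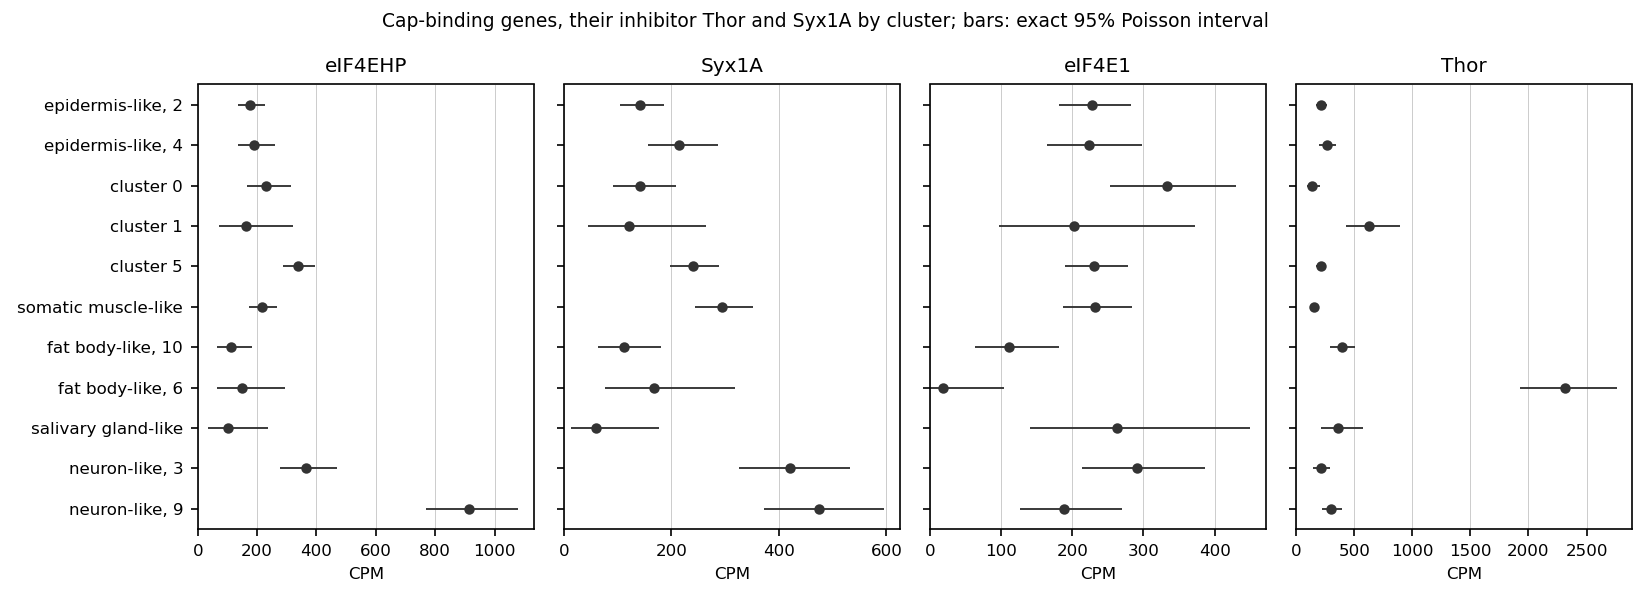
CPM of eIF4EHP, the overlapping gene Syx1A, eIF4E1 and Thor, the 4E-binding protein, in each cluster, with exact 95% Poisson intervals. eIF4EHP is highest in cluster 9 of the neuron-like nuclei (915 CPM), Syx1A is at like levels in clusters 3 and 9 (420 and 474 CPM), eIF4E1 is lowest and Thor highest in cluster 6 of the fat body-like nuclei.

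The second eEF1alpha gene, eEF1alpha2, had too few UMIs to place it in a tissue. Its 26 UMIs lay in 23 nuclei. Neuron-like nuclei held 8 of them, 25.3 CPM against 9.39 CPM elsewhere, a ratio of 2.70 (1.01 to 6.52) that became 1.52 with nuclei weighted equally and 4 with nuclei thinned to 1000 UMIs. Clusters 3 and 9 gave 4 UMIs each. Cluster 5, the deepest, also held 8 UMIs (16.9 CPM) and epidermis-like nuclei 6 (10.5 CPM). Somatic muscle-like nuclei held 1 UMI among 401420, a ratio of 0.183 (0.00445 to 1.12), and fat body-like and salivary gland-like nuclei held none. Even in neuron-like nuclei eEF1alpha1 held 99.6% (99.1% to 99.8%) of the pair.

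Of the scaffold proteins, eIF4G1 stood at 497 CPM in neuron-like nuclei against 390 CPM elsewhere (ratio 1.27, 1.07 to 1.52) and at 333 against 430 CPM in epidermis-like nuclei (0.773, 0.656 to 0.909). The paralog eIF4G2, which in flies is known for its role in male meiosis, stood at 253 CPM in neuron-like, 173 CPM in epidermis-like, 189 CPM in somatic muscle-like and 300 CPM in fat body-like nuclei. The annotated span of eIF4G2 overlaps CG33111 and CG34355, and whether reads are shared was not tested. Salivary gland-like nuclei gave 910 CPM of eIF4G2 against 217 elsewhere, a ratio of 4.20 (3.02 to 5.71), and eIF4G2 held 66.2% (53.7% to 77.2%) of the pair there. Of these 45 UMIs, 38 lay in 1 nucleus, which holds 73.2% of the UMIs of the class, and without it the ratio was 2.41. The poly(A)-binding protein pAbp stood at 8172 CPM in salivary gland-like nuclei against 4771 elsewhere (1.71, 1.55 to 1.89), and at 0.911 of the level elsewhere without that nucleus. In the 4 named classes of at least 20 nuclei pAbp lay between 3403 CPM (fat body-like, 0.683 of all other nuclei, 0.630 to 0.738) and 5490.5 CPM (somatic muscle-like, 1.17 times all other nuclei), with 4675 CPM in neuron-like and 4844 CPM in epidermis-like nuclei. The helicase eIF4A stood at 1795 CPM in epidermis-like nuclei, 1.23 (1.14 to 1.32) times all other nuclei, and its cofactor eIF4B ranged from 222 to 239 CPM in the 4 named classes of at least 20 nuclei.

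Summed, the eIF3 subunits took 0.254% of UMIs in neuron-like, 0.253% in epidermis-like, 0.222% in somatic muscle-like and 0.190% in fat body-like nuclei, against 0.247% over all nuclei. Somatic muscle-like nuclei stood at 0.879 (0.817 to 0.944) of all other nuclei. The subunit with the most UMIs, eIF3b, had 408 CPM in neuron-like, 371 CPM in epidermis-like, 316 CPM in somatic muscle-like and 259 CPM in fat body-like nuclei. Of the eIF2 group, the start codon factor eIF5 stood at 228 CPM in neuron-like nuclei against 164 elsewhere (1.39, 1.06 to 1.80) and at 138 against 185 CPM in epidermis-like nuclei (0.746, 0.575 to 0.959). The scanning factor eIF1A went the other way, with 241 against 323 CPM in neuron-like nuclei (0.745, 0.579 to 0.947) and 354 against 297 CPM in epidermis-like nuclei (1.19, 1.01 to 1.41). The annotated span of eIF5 overlaps CG46312 and that of eIF1A overlaps CG7142 and CG14312, and whether reads are shared was not tested. For eIF2gamma, which had 185 CPM in cluster 3 against 115 elsewhere (1.61, 1.06 to 2.35), the annotated span overlaps Su(var)3-9, which had 6 UMIs in neuron-like nuclei. The tRNA-loading factor eIF2D, which acts apart from eIF2, had 48 UMIs spread over all classes.

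Counted over the 42 members with at least 20 UMIs, few lay 2-fold or more from their level in all other nuclei (on CPM + 10). The share of all 7983 genes with at least 20 UMIs that did so is given beside each count. In neuron-like nuclei 1 member was higher (eIF4EHP), where 7.14% of all genes were, and 1 lower (eIF6), where 6.66% were. The ribosome assembly and anti-association factor eIF6, whose annotated span overlaps ytr, had 2 UMIs in neuron-like nuclei and 49 elsewhere. Cluster 9 alone gave 1 higher (8.96%) and 1 lower (14.6%), the same 2 genes, and cluster 3 gave 0 higher (4.10%) and 1 lower (10.4%), again eIF6. In epidermis-like nuclei 0 members were 2-fold higher and 0 lower, against 3.33% and 5.69% of all genes. Cluster 2 had 0 higher (2.08%) and 0 lower (6.85%), and cluster 4 had 0 higher (4.12%) and 2 lower (13%), eIF3a with 18 UMIs and eIF5B with 6. In somatic muscle-like nuclei the counts were also 0 and 0, against 4.31% and 8.15%. The members nearest those limits were eIF6 (log2 difference 0.56), eEF1delta (0.47) and eEF1alpha1 (0.30) above and eIF4EHP (-0.76), eIF4G2 (-0.52) and eIF5 (-0.40) below in epidermis-like nuclei. In somatic muscle-like nuclei they were eIF2Balpha (0.46), eIF5B (0.37) and eIF5 (0.30) above and eEF1alpha2 (-0.92), eIF2Bdelta (-0.64) and eEF1delta (-0.54) below. Median log2 differences of the members were 0.01 in neuron-like, 0.03 in epidermis-like and -0.12 in somatic muscle-like nuclei, against -0.02, -0.10 and -0.22 over all genes.

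**Figure D5:**
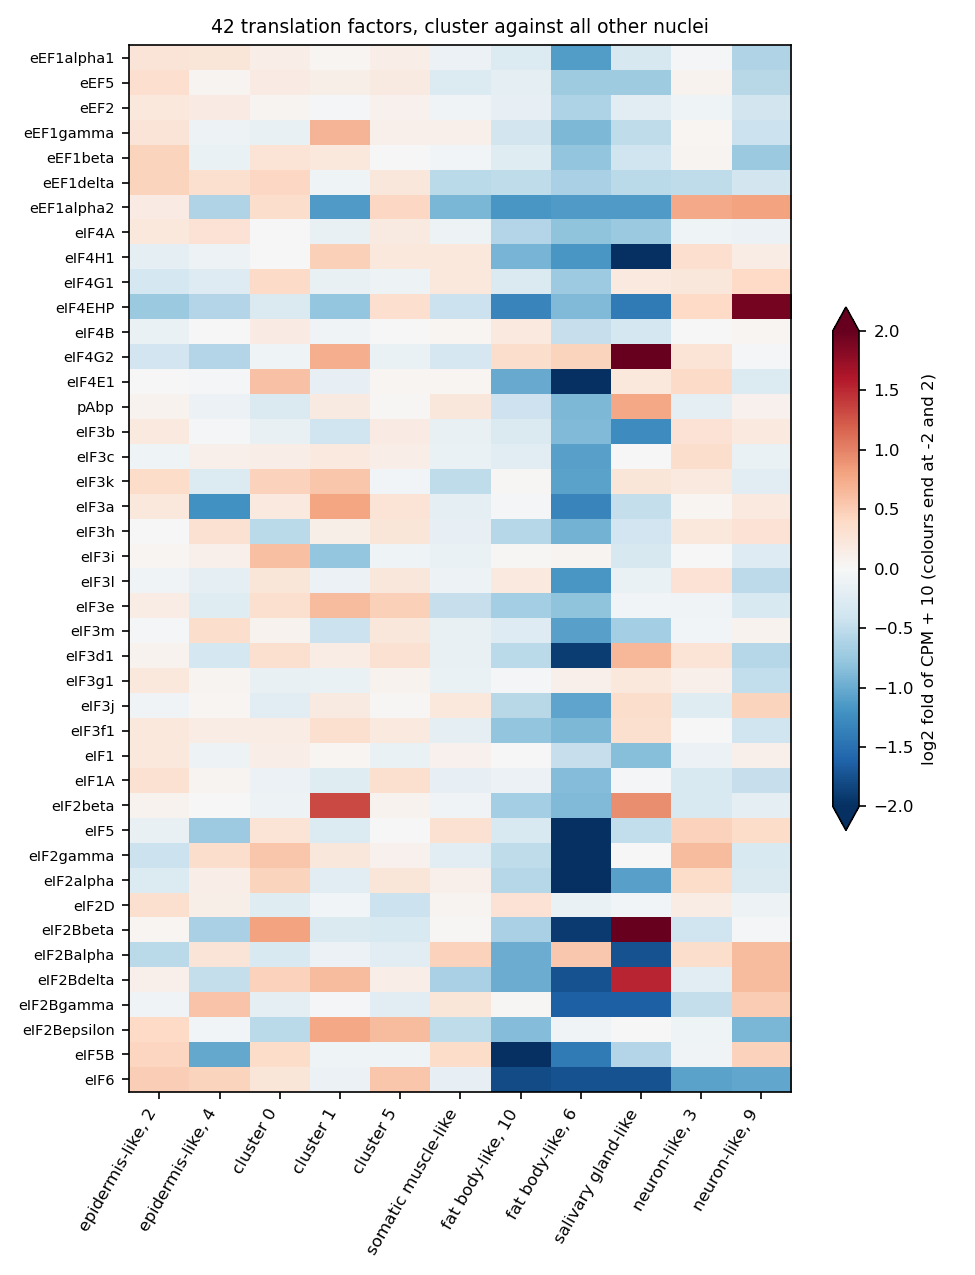
Log2 fold of CPM + 10 for the 42 members with at least 20 UMIs (rows, grouped by role) in each cluster against all other nuclei (columns), red for higher and blue for lower, with colours ending at -2 and 2. Most cells are pale, and eIF4EHP is the dark red cell of cluster 9 of the neuron-like nuclei (1.92). Cluster 6 of the fat body-like nuclei is blue for 38 of the 42 members, with a median of -0.90, close to the -0.85 of all genes there.

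Fat body-like nuclei had the lowest factor share, 1.89% against 2.64% elsewhere, a ratio of 0.717 (0.694 to 0.742). Cluster 6 gave 1.39% and cluster 10 gave 2.08%, and as sums of UMIs both lay below the other clusters. In cluster 9 of the neuron-like nuclei 1 nucleus held 55846 of 154056 UMIs, with a factor share of 2.70%. The place of cluster 9 above cluster 10 depends on that nucleus. Ribosomal proteins were lower too in fat body-like nuclei, at 20.6% against 25.5%. In the class 0 members were 2-fold higher (7.52% of all genes were) and 7 were 2-fold lower (24.0% of all genes were), and 37 of 42 lay below their level elsewhere. The median log2 difference of the members was -0.53 and that of all genes -0.47, which is close to the members' value. Those 2-fold lower were eIF5B, eIF6, eIF4E1, eIF4EHP, eIF2Bdelta, eEF1alpha2 and eIF4H1. The 3 lowest were eIF5B (2 UMIs, 0.145 of the level elsewhere), eIF6 (0 UMIs) and eIF4E1, and the highest were eIF4G2 (0.40), eIF2D (0.19) and eIF3i. In cluster 6 alone 0 members were 2-fold higher (8.36% of all genes) and 19 were lower (44.7%), and in cluster 10 it was 0 (7.07%) and 5 (26.1%).

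Cap-binding genes and their inhibitors stood as follows in these nuclei. For eIF4E1 the 29 nuclei gave 86.3 CPM (50.3 to 138) from 17 UMIs, against 240 CPM elsewhere, a ratio of 0.360 (0.208 to 0.582). Cluster 6 had 1 UMI among 53602, and cluster 10 had 16, or 112 CPM. Thor, the fly 4E-BP that binds eIF4E1 and keeps it from eIF4G, stood at 914 CPM (786 to 1058) against 221 CPM elsewhere, a ratio of 4.13 (3.45 to 4.92). Thor was at 2313 CPM (1924 to 2758) in cluster 6 and 391 CPM (295 to 508) in cluster 10, and of the 124 UMIs of cluster 6, 44 lay in 1 nucleus and 9 of the 13 nuclei had a UMI. Cluster 1, which had midgut markers, followed with 628 CPM of Thor (427 to 892), 19 of its 31 UMIs in 1 nucleus. Paip2, which binds pAbp and inhibits translation, stood at 345 CPM (268 to 438) against 136 CPM, a ratio of 2.54 (1.92 to 3.32). It was 2-fold higher in cluster 10 (370 CPM, 2.65, 1.94 to 3.56) and did not pass 2-fold in cluster 6 (280 CPM, 1.85, 1.02 to 3.09). The TOR complex gene raptor had 0 UMIs in the class, which allows up to 3, and 73 elsewhere.

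The remaining clusters were small or unnamed. Salivary gland-like nuclei had 3 members 2-fold higher (5.12% of all genes) and 8 lower (45.4%), on 49436 UMIs. Besides eIF4G2 the higher ones were eIF2Bbeta (7 UMIs, 6 of them in 1 nucleus) and eIF2Bdelta (4 UMIs), and the lowest was eIF4H1 at 142 CPM against 597 (0.237, 0.0952 to 0.490). Cluster 0 had 0 higher (8.19%) and 0 lower (14.2%), with eIF2Bbeta, eIF3i and eIF4E1 at the top and eIF4E1 at 333 CPM against 217 (1.53, 1.15 to 2.01). Cluster 1 had 1 higher (9.60%), eIF2beta at 527 CPM against 205 (2.57, 1.66 to 3.81), with 12 of its 26 UMIs in 1 nucleus, and 1 lower (37.1%). The lower one was eEF1alpha2, with 0 UMIs. Cluster 5 had 0 and 0, where 1.20% and 3.29% of all genes passed. The annotated spans of eIF2Bbeta, eIF2Bdelta, eIF3i and eIF2beta overlap CG2680, Mtmr6, CG34125 and ver, and whether reads are shared was not tested.

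Genes of the same pathway outside the rule were counted in the same way. Of 20 other initiation factors and regulators with at least 20 UMIs, 1 was 2-fold higher in neuron-like nuclei, where 7.14% of all genes were, the translational repressor brat (1890 against 915 CPM, 2.07, 1.88 to 2.27). For brat cluster 3 gave 2545 CPM (2.72, 2.44 to 3.03) and cluster 9 gave 1201 CPM (1.15, 0.987 to 1.34). Its partner pum stood at 1415 CPM in neuron-like nuclei against 1000.2 CPM elsewhere. In somatic muscle-like nuclei 1 was higher (4.31% of all genes), mxt, an eIF4E-binding protein of flies (152 against 56.8 CPM, 2.68, 1.92 to 3.71). In fat body-like nuclei 2 were higher (Thor and Paip2), where 7.52% of all genes were, and 3 lower, where 24.0% were. In cluster 0, where 8.19% of all genes were higher and 14.2% lower, 5 were higher, led by me31B (1117 against 334 CPM, with 143 of 198 UMIs in 1 nucleus) and tral (1337 against 464 CPM, with 164 of 237 UMIs in 1 nucleus), which repress stored mRNAs in the oocyte and early embryo, and 1 was lower, Thor (141 against 295 CPM). The cytosolic aminoacyl-tRNA synthetases, 20 genes, had 0 members past 2-fold in neuron-like, epidermis-like or somatic muscle-like nuclei, and in fat body-like nuclei 6 were lower, a share near the 24.0% of all genes. Of the 5 termination and recycling genes, 0 passed 2-fold in these 4 classes. In the same order of classes 7.14%, 3.33%, 4.31% and 7.52% of all genes were higher and 6.66%, 5.69%, 8.15% and 24.0% lower. With 20 or 5 genes a count of 0 lies near these shares.

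The spread between nuclei was measured against counting noise. In nuclei thinned to 1000 UMIs, 32 members had a mean of at least 0.1 UMI, and their median Fano factor (variance over mean, 1 for pure counting noise) was 1.01, against 1.15 over 1872 genes of that level. Of the 32, 8 lay above the median of all. The highest were pAbp at 1.46, eEF1alpha1 at 1.41, eEF1delta and eEF5 at 1.32, eIF1 at 1.25 and both cap-binding genes, eIF4E1 and eIF4EHP, at 1.22. The lowest was eIF3b at 0.886. The first 2 places are those of the members with the most UMIs.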

How the data were processed

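Per the 10x platform in the labels, the deposited matrix gives raw UMI counts, which the values bear out as whole numbers with different totals for each nucleus. The build is dm3 per the submitters' processing notes; the sources used here name no aligner, counter or barcode filter. Clustering used scanpy 1.11.5 with igraph 0.11.9, under python 3.11.15; tables used pandas 2.3.3, intervals scipy 1.17.1 and numpy 2.4.6, figures matplotlib 3.10.9. The steps were scaling to 10000, log, 2000 variable genes found in at least 3 nuclei, 20 components, 10 neighbours, Leiden resolution 1.0, seed 0. The 203 members, comparison genes and ribosomal protein genes were left out of the variable genes.

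A cluster took the name of the marker list (of 21) with the most markers over 2-fold higher at 5 or more UMIs, if at least 3. Cluster 0 kept no name because of its leading genes, a choice made after the values were seen, and cluster 1 because its median lay under 989.667 UMIs with no marker among its leading genes. Doublets were scored with Scrublet but none were removed. Thinning to 1000 UMIs kept 270 nuclei and left out 48. Of 295 marker entries 278 matched by symbol and 13 by an older symbol. Of 72 comparison entries 68 matched.

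Classes were compared with all other nuclei as sums of UMIs in CPM. Printed ratios are of CPM, and log2 differences and 2-fold counts use CPM + 10. Intervals are Poisson for CPM, Clopper-Pearson for shares and conditional binomial for ratios, at 95%. No p-values were computed, since there is 1 library. The fold and interval steps were tested on simulated counts that held counting noise only. Clustering, naming and the effect of spread between nuclei were not tested. Members and lists were chosen with earlier results of these data known. Named genes were the 12 members with the most UMIs, all paralogs, the 3 highest and 3 lowest members of each class of at least 20 nuclei, members under 20 UMIs and up to 3 highest and lowest genes of each comparison list; others named with values, among them the elongation factors of cluster 9, eIF2gamma, Syx1A and genes of the small clusters, were added after their values were seen. Overlaps came from RefSeq's Release 6 annotation, in which 19 of the 47 members overlap another protein-coding gene, eIF4G2, eIF6 and eIF2beta among them. Whether reads are shared was not tested. The coordinates of that annotation are of another build and are not given.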

Additional observations from a re-analysis of the deposited data

How the results depend on the processing

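No paired analysis was possible because there is 1 library with no replicate. The summed share of 2.57% became 2.41% with nuclei thinned to 1000 UMIs and 2.39% with nuclei weighted equally, and the eIF4E1 share of its family became 40.0% with equal weights. The summed fold of neuron-like nuclei (0.925) became 0.867 thinned, 0.891 with equal weights and 0.893 when all genes could be variable genes. That of somatic muscle-like nuclei (0.971) turned to 1.01 thinned and 1.05 with equal weights, so it has no stable direction. That of epidermis-like nuclei (1.11, 80 nuclei) became 1.15 thinned, 1.14 at resolution 0.6 (100 nuclei), 1.08 at resolution 1.6 (46 nuclei) and 1.05 with all genes variable (37 nuclei). The class itself thus changed with the clustering, and its elongation and ribosomal protein ratios were not repeated with these sets of nuclei. The eEF1alpha2 ratio of neuron-like nuclei (2.70) became 1.52 with equal weights and 4 thinned. The eEF1alpha2 ratio in somatic muscle-like nuclei became 0 thinned and 0 without the deepest nucleus. In fat body-like nuclei, an alternative added after the values were seen, 0.717 became 0.665 thinned, 0.659 with equal weights, 0.659 without the 5% of nuclei with the highest Scrublet scores, 0.689 without the deepest nucleus and 0.777 with all genes variable. The number of factor and class pairs past 2-fold, 20 in all, became 58 thinned, 33 with equal weights and 8 on CPM + 50. The causes were not tested. Also added after the values were seen, the eIF4EHP ratio of neuron-like nuclei ran from 2.73 to 3.51 over 8 alternatives, the eIF4E1 ratio of fat body-like nuclei from 0.160 to 0.476, that of Thor from 3.56 to 6.07, the neuron-like elongation ratio from 0.754 to 0.842 and the initiation ratio from 1.06 to 1.11. In salivary gland-like nuclei pAbp ran from 0.911 to 1.73 and eIF4G2 from 1.52 to 4.23. Members under 20 UMIs are limited by depth.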

Other observations

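Genes of mitochondrial translation were measured beside the cytosolic factors. The 6 mitochondrial translation factors with at least 20 UMIs had a median log2 difference of -0.81 in fat body-like nuclei, where all genes had -0.47, and 2 of the 6 were 2-fold lower, where 24.0% of all genes were. In cluster 1 the median was 0.81 against -0.42 over all genes, on 18 UMIs, and in cluster 0 it was 0.57 against 0.09. Of the 7 mitochondrial aminoacyl-tRNA synthetases of that depth, 0 passed 2-fold in neuron-like nuclei, where 7.14% of all genes were higher and 6.66% lower. In fat body-like nuclei 3 were lower, where 24.0% of all genes were, with a median log2 difference of -0.53 against -0.47 over all genes. The cytosolic aminoacyl-tRNA synthetases took 0.0766% of UMIs in neuron-like nuclei against 0.0944% elsewhere (ratio 0.812, 0.707 to 0.929), and 0.138% against 0.0908% in salivary gland-like nuclei, from 68 UMIs (1.51, 1.17 to 1.93). The scaffold homologue NAT1, which lies outside the rule, had 1017 UMIs in all, more than eIF4G1, and stood at 601 CPM in neuron-like nuclei against 431 CPM elsewhere (1.40, 1.19 to 1.64).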
